A study of Mus musculus with 8 samples.

Results

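The genes described here encode the constitutive proteasome and the factors that assemble and regulate it. They were chosen by name and type: protein-coding genes of the count table whose symbol starts with Psma, Psmb, Psmc, Psmd, Psme, Psmf or Psmg followed by a digit, without the immunoproteasome subunits Psmb8, Psmb9 and Psmb10 and without names that contain -ps. The rule took 48 of the 53700 genes in the table, and no measured value entered it. It found 8 genes of the alpha ring, 8 of the beta ring, 6 ATPases and 3 other subunits of the base of the 19S particle, 8 subunits of its lid, 6 activators and inhibitors, and 7 assembly factors. The remaining 2, Psmc3ip and Psme3ip1, share the spelling but are not subunits. Adrm1 and Sem1, subunits of the 19S particle whose symbols lie outside the rule, were examined with the related genes.

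RNA was sequenced from Lewis lung carcinoma (LLC) cells, a mouse lung tumor line, with 2 libraries in each of 4 groups: WT cells at 21% O2 (normoxia), FIH-KO cells at 21% O2, WT cells at 1% O2 (hypoxia) and FIH-KO cells at 1% O2, each cultured for 16 hours. FIH, the product of Hif1an, is an oxygen-dependent asparagine hydroxylase that limits the activity of the hypoxia-inducible factors. The FIH-KO cells came from CRISPR/Cas9 cutting in Hif1an followed by single-cell dilution, so that differences between WT and FIH-KO cells and differences between a clone and its parent line cannot be told apart. The labels do not say whether the libraries of a group came from separate cultures, and p values measure only the spread between these libraries.

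The proteasome degrades proteins tagged with ubiquitin. Its 20S core is a barrel of stacked rings. The outer alpha rings gate the entry, and the inner beta rings carry the catalytic sites, of chymotrypsin-like (Psmb5), caspase-like (Psmb6) and trypsin-like (Psmb7) activity. The 19S particle caps the core. Its lid removes ubiquitin, and the ATPases of its base unfold the substrate and thread it into the barrel. Subunit genes are known to be induced together when proteasome activity drops, through the transcription factor NRF1 (Nfe2l1), which binds antioxidant response elements (ARE) with small MAF proteins. HIF-1α itself is a known substrate of the proteasome when oxygen is present.

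The ARE is the regulatory element that ties these genes to NRF1, and its occurrences near the start of the members are therefore shown first. The window ran from 250 bases before to 50 bases after the start of each gene in RefSeq sequences of GRCm38.p6, which held 40 of the 48 members. Psma8, Psmb1, Psmb2, Psmb7, Psmc3, Psmd3, Psmd7 and Psmg2 had no entry. The letters TGACNNNGC were searched on both strands. They were present in 6 members (15%), against 14% of all 27025 promoters. Capitals mark the match, in the direction of transcription. The match in Psme4 crosses the start of the gene and is not shown.
Psmb5 (chr14:54618014-54618062, minus strand): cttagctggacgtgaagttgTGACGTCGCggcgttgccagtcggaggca
Psmb6 (chr11:70525328-70525356, plus strand): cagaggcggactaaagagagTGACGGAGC
Psmd9 (chr5:123228139-123228187, plus strand): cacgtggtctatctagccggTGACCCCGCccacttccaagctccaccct
Psmd12 (chr11:107479278-107479309, plus strand): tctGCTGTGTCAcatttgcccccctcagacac
Psmc6 (chr14:45329577-45329625, plus strand): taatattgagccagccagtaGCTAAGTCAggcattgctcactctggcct
The match ends 1 base before the start of Psmb6, lies 39 to 47 bases before that of Psmb5 and 23 to 31 bases before that of Psmd9. In Psmd12 and Psmc6 it lies on the opposite strand, more than 200 bases upstream. The core of the hypoxia response element (ACGTG or GCGTG, both strands) was found in 22 members (55%), against 46.7% of all promoters, the CCAAT box (ATTGG, both strands) in 15 members (37.5%), against 41.1%, and the E-box (CACGTG, which contains ACGTG) in 4 members (10%), against 8.09%. These are letter matches in a short window and are given as descriptions.

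The libraries held from 14519731 to 18177016 counted reads, of which the members took between 0.538% and 0.756%. Levels are given as CPM, the usual count scaled to library size, here with TMM factors, which ran from 0.983 to 1.02. Of the 48 members, 2 were too low to be tested. Psma8, a testis form of an alpha subunit, had no read in any library, and Psmb11, the thymus form of a beta subunit, had at most 0.179 CPM. The other 46 were among the 13933 genes tested. Hif1an, measured as a check of the labels, was at 83.4 ± 1.62 CPM in WT and 36.2 ± 2.05 CPM in FIH-KO cells in normoxia (SD, n = 2 each), and at 87.1 ± 4.34 and 48.3 ± 3.89 CPM in hypoxia. The keratins Krt8 and Krt18 and the mesenchymal genes Vim and Fn1 were abundant in all groups, while the epithelial markers Epcam (no read) and Cdh1 (at most 1 read per library) were absent or nearly so. The leukocyte markers Ptprc, Cd3e and Adgre1 had at most 3 reads per library. Their list summed to between 0.321 and 0.533 CPM in WT normoxia and between 4.88 and 5.99 CPM in FIH-KO normoxia, where Lyz2 accounted for it. In hypoxia the list summed to between 0.341 and 0.504 CPM in WT and between 1.94 and 5.01 CPM in FIH-KO cells. The endothelial list summed to at most 2.41 CPM.

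The summed level of the 33 genes of the core and the 19S particle was highest in WT normoxia and lowest in hypoxia. It was 6631.6 and 6314.5 CPM in the libraries of WT normoxia, 5490.5 and 5715.1 CPM in FIH-KO normoxia, 4713.5 and 4737.6 CPM in WT hypoxia, and 4734.4 and 4671.0 CPM in FIH-KO hypoxia. Both normoxic WT libraries lay above both normoxic FIH-KO libraries, which lay above all 4 hypoxic libraries, and the hypoxic WT and FIH-KO libraries overlapped. The mean was 13.4% lower in FIH-KO than in WT cells in normoxia, 27.0% lower in hypoxia than in normoxia in WT cells, and 16.1% lower in hypoxia in FIH-KO cells. In bulk RNA, fewer cells with the transcripts and less RNA per cell cannot be told apart. Core and 19S particle had like patterns. The core summed to 2658.9 ± 111.8 CPM in WT normoxia, 2249.1 ± 24.8 in FIH-KO normoxia, 1862.7 ± 3.08 in WT hypoxia and 1880.1 ± 87.2 in FIH-KO hypoxia (SD, n = 2 each). For the 19S particle the values were 3814.1 ± 112.4, 3353.7 ± 183.6, 2862.9 ± 20.1 and 2822.6 ± 42.5 CPM in the same order.

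**Figure D1:**
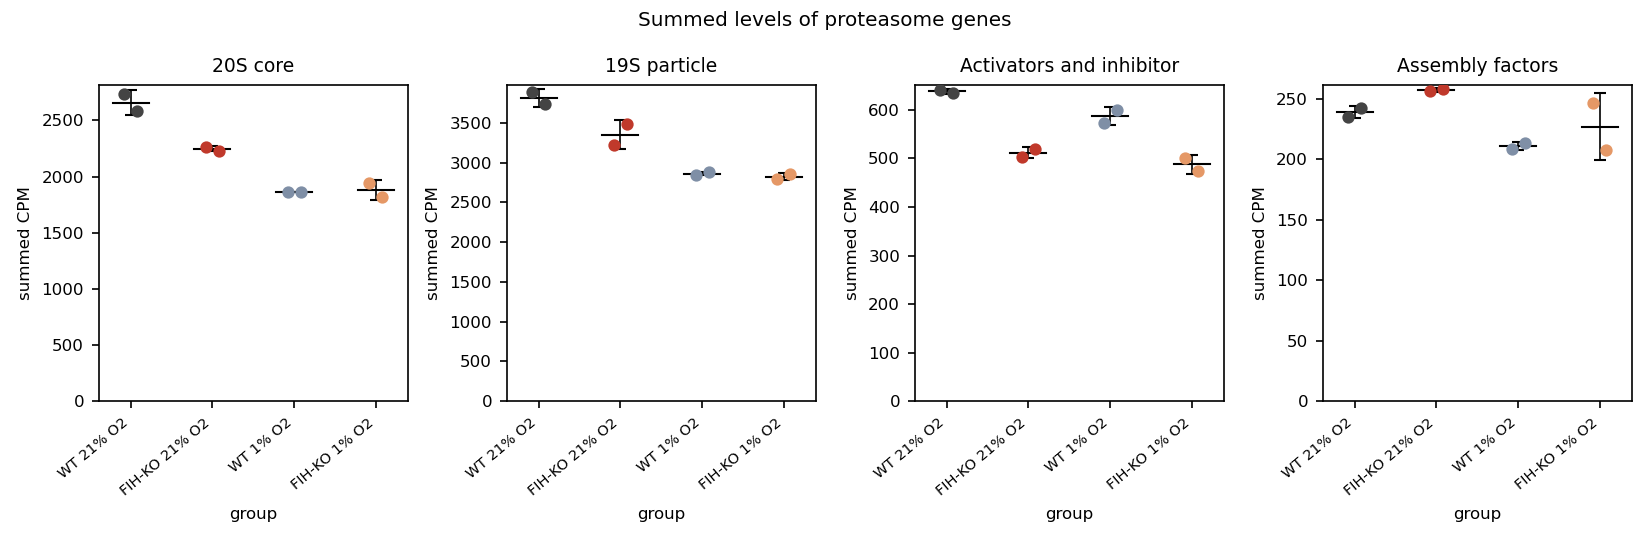
Summed CPM (vertical axis, from 0) of the genes of the 20S core, the 19S particle, the activators and inhibitor, and the assembly factors in the 4 groups. Points are libraries, horizontal lines are means and error bars are SD (n = 2). The core sums to between 2579.9 and 2738.0 CPM in WT normoxia and to between 1818.4 and 1941.7 CPM in all hypoxic libraries.

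Taking the genes singly, 31 of the 46 tested members had their highest mean in WT normoxia, 11 in FIH-KO normoxia, 4 in WT hypoxia and 0 in FIH-KO hypoxia. The lowest mean fell in WT hypoxia for 23 members and in FIH-KO hypoxia for 18. Within groups, the median gap between the libraries of a member was between 5.16% and 6.64% of its mean. In WT normoxia replicate 1 was the higher library for 33 of the 46 members, and in FIH-KO normoxia for 14.

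**Figure D2:**
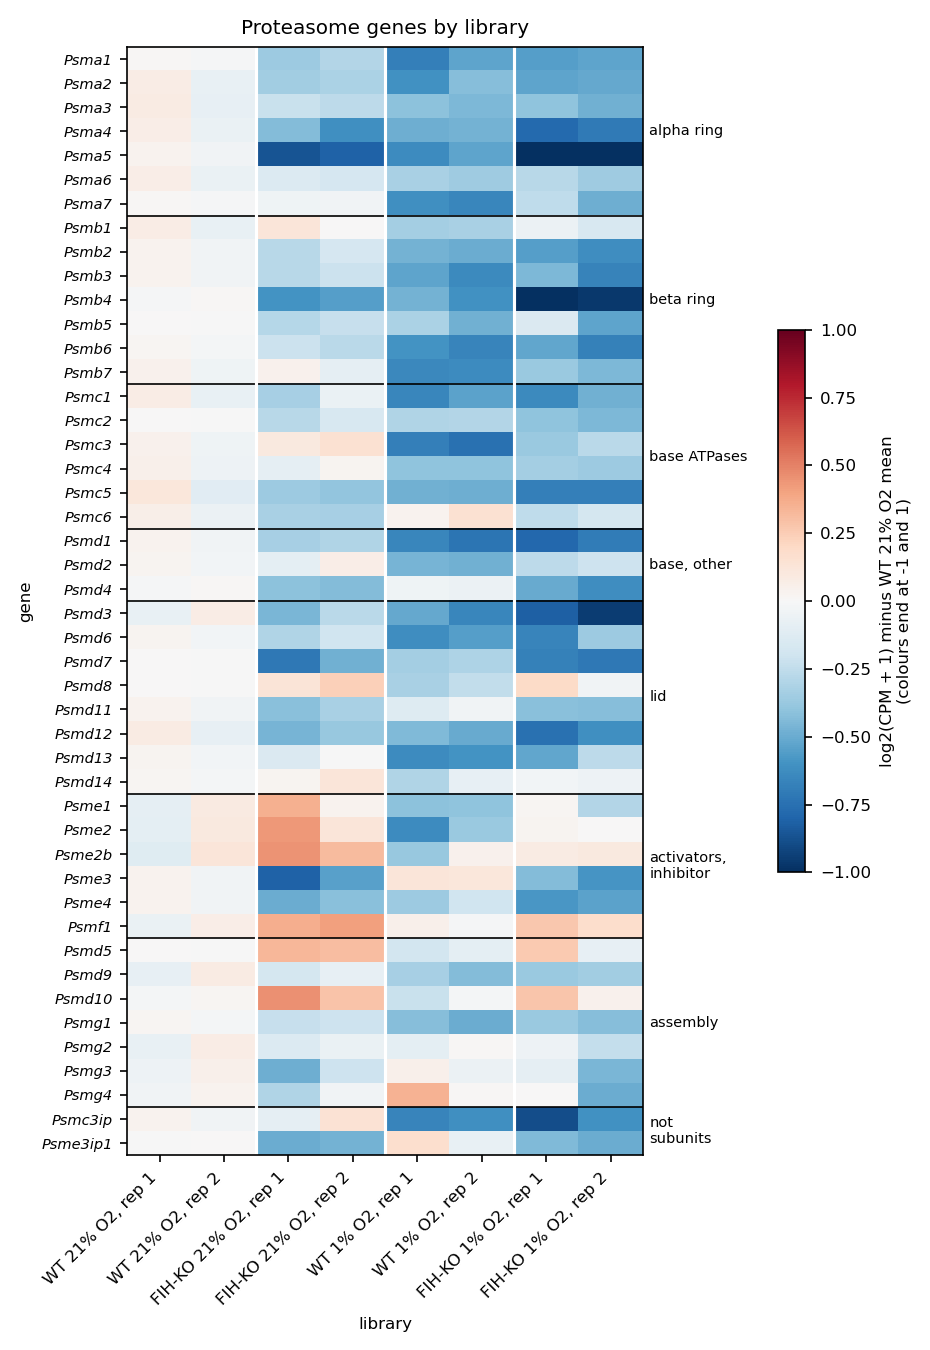
Log2(CPM + 1) of the 46 tested members (rows, by role) in the 8 libraries (columns), minus the mean of the WT libraries in normoxia. Blue is lower and red is higher, with colours ending at -1 and 1. Nearly all rows of the alpha and beta rings are blue in the 4 hypoxic libraries, and the rows of Psma5 and Psmb4 are darkest in FIH-KO hypoxia.

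The first comparison asked how hypoxia changed these transcripts in WT cells. Most subunit genes of the proteasome fell, 26 of the 31 tested genes of the core and the 19S particle. All 14 tested genes of the 20S core were lower in hypoxia, with log2 fold changes from -0.64 to -0.33. In the 19S particle 12 of 17 were lower, among the activators and inhibitor 2 of 6, and among the assembly factors 2 of 7. Over all members, 31 of 46 (67.4%) passed as lower and 0 as higher, with an adjusted p below 0.05 (edgeR quasi-likelihood test, Benjamini-Hochberg over all tested genes), where 15.5% of all tested genes were lower and 16.9% higher. DESeq2 also called 31 lower and 0 higher, and of the 33 members with an unadjusted p under 0.05 in edgeR the remaining 2 were not called. The median log2 fold change was -0.45 over the members and -0.001 over all tested genes. The libraries of the groups did not overlap, with hypoxia lower, for 38 members and with hypoxia higher for 1, against 35.6% and 35.2% of all tested genes. Without replicate 1 of WT normoxia 18 members were called lower and without replicate 2 of WT hypoxia 20 were. All 14 core genes kept a negative fold change under every setting tried, and between 10 and 11 of them were called when a library was left out. In the 19S particle 7 were called without replicate 1 of WT normoxia.

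Among the catalytic subunits, the level of Psmb5 was 67.0 and 66.7 CPM in WT normoxia, 54.8 and 56.9 CPM in FIH-KO normoxia, 53.4 and 47.7 CPM in WT hypoxia, and 60.3 and 46.1 CPM in FIH-KO hypoxia. Psmb6 stood at 178.4 and 172.9 CPM in WT normoxia, 150.8 and 145.7 CPM in FIH-KO normoxia, 115.8 and 110.8 CPM in WT hypoxia, and 122.2 and 109.7 CPM in FIH-KO hypoxia. Psmb7 had 240.9 and 227.9 CPM in WT normoxia, 241.8 and 220.6 CPM in FIH-KO normoxia, 149.5 and 151.1 CPM in WT hypoxia, and 181.0 and 170.9 CPM in FIH-KO hypoxia. In WT cells all 3 catalytic genes were lower in hypoxia with no overlap of the libraries. Psmb6 fell by 0.63 on the log2 scale (standard error, SE, 0.10, adjusted p = 0.00087) and Psmb7 by 0.64 (SE 0.10, adjusted p = 0.00082), which is 35.5% and 35.9% lower. Psmb5 fell by 0.40 (SE 0.14, adjusted p = 0.04). The noncatalytic beta subunits were 20.6% (Psmb1), 28.9% (Psmb2), 33.3% (Psmb3) and 31.4% (Psmb4) lower, all called. In the alpha ring the decreases ran from 21.0% for Psma6 and 25.8% for Psma3 to 35.8% for Psma7, whose adjusted p was 0.0012. Psma7 had 281.0 and 276.3 CPM in WT normoxia, 269.8 and 272.4 CPM in FIH-KO normoxia, 181.4 and 176.6 CPM in WT hypoxia, and 233.3 and 197.9 CPM in FIH-KO hypoxia.

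In the 19S base, Psmc3 and Psmd1 fell most in WT cells. Psmc3, an ATPase of the ring that contacts the core, was at 253.5 and 237.5 CPM in WT normoxia, 262.9 and 272.1 CPM in FIH-KO normoxia, 152.6 and 146.1 CPM in WT hypoxia, and 189.4 and 203.3 CPM in FIH-KO hypoxia. Its log2 fold change was -0.72 (SE 0.10, adjusted p = 0.00039), 39.2% lower. Psmd1, a large scaffold of the base, was at 387.5 and 367.7 CPM in WT normoxia, 299.0 and 306.8 CPM in FIH-KO normoxia, 239.5 and 226.7 CPM in WT hypoxia, and 218.2 and 232.0 CPM in FIH-KO hypoxia. It fell by 0.70 (SE 0.10, adjusted p = 0.00048), with both groups of normoxic libraries above all hypoxic ones. The other large scaffold, Psmd2, which docks shuttle receptors, was 28.1% lower (adjusted p = 0.0067). Of the remaining ATPases Psmc1, Psmc2, Psmc4 and Psmc5 were called lower, by 18.5% (Psmc2) to 33.9% (Psmc1), and Psmc6 was not (log2 fold change 0.09, adjusted p = 0.54).

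The lid divided. Psmd3, Psmd6, Psmd7, Psmd12 and Psmd13 were called lower in WT hypoxia, and Psmd8, Psmd11 and Psmd14 were not. Psmd13 was at 144.0 and 139.2 CPM in WT normoxia, 127.8 and 140.9 CPM in FIH-KO normoxia, 91.0 and 93.4 CPM in WT hypoxia, and 98.5 and 118.1 CPM in FIH-KO hypoxia. In WT cells it fell by 0.62 (SE 0.12, adjusted p = 0.0019). Psmd3 had 230.8 and 255.4 CPM in WT normoxia, 176.3 and 201.3 CPM in FIH-KO normoxia, 169.9 and 153.9 CPM in WT hypoxia, and 137.5 and 125.2 CPM in FIH-KO hypoxia, and its decrease in WT hypoxia was 33.4% (adjusted p = 0.0027). Psmd14, the deubiquitinase of the lid, had a log2 fold change of -0.19 (SE 0.11, adjusted p = 0.21). The values for Psmd8 and Psmd11 were -0.29 (adjusted p = 0.066) and -0.08 (adjusted p = 0.57). Psmd4, the ubiquitin receptor of the base, was at -0.05 (adjusted p = 0.73). For all of these except Psmc6 the hypoxic WT libraries lay below the normoxic ones.

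The activators and assembly factors moved less evenly. Psme1 and Psme2, which together form an activator of the core known from the interferon response, were 25.1% lower (adjusted p = 0.05, just under the threshold before rounding) and 30.1% lower (adjusted p = 0.021). Psme3, the nuclear activator PA28γ, had a log2 fold change of 0.11 (adjusted p = 0.49). Psme4, a nuclear activator of another family, was at -0.28 (adjusted p = 0.06), and Psmf1, an inhibitor of the core in vitro, at 0.02 (adjusted p = 0.92). Of the chaperones that build the alpha ring, Psmg1 fell by 0.48 (SE 0.13, adjusted p = 0.016). It had 31.0 and 30.0 CPM in WT normoxia, 25.8 and 26.3 CPM in FIH-KO normoxia, 22.5 and 21.3 CPM in WT hypoxia, and 23.4 and 22.5 CPM in FIH-KO hypoxia, highest in WT normoxia and lowest in the hypoxic groups. Its partner Psmg2 had a log2 fold change of -0.04 (adjusted p = 0.83), and Psmg3 and Psmg4, with at most 12.6 CPM, were not called. Of the chaperones of the base, Psmd9 fell by 0.40 (adjusted p = 0.038), while Psmd5 and Psmd10 were at -0.14 and -0.12 and not called. Psmc3ip, a meiotic recombination factor and no subunit, had 231 and 236 reads in WT normoxia, 226 and 285 reads in FIH-KO normoxia, 156 and 133 reads in WT hypoxia, and 117 and 140 reads in FIH-KO hypoxia, which is at most 9.11 CPM in hypoxia and at least 13.5 CPM in normoxia. It fell by 0.69 in WT cells (SE 0.19, adjusted p = 0.015) and by 0.84 in FIH-KO cells (adjusted p = 0.011).

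In FIH-KO cells 42 of the 46 members had a negative fold change in hypoxia, and fewer passed the test than in WT cells. Of the 46 9 (19.6%) were called lower and 0 higher, against 8% and 8.84% of all tested genes, and the median log2 fold change was -0.22 over the members and -0.03 over all tested genes. DESeq2 called 11 lower and 0 higher, and 16 members had an unadjusted p under 0.05 in edgeR. The 9 were Psmb2, Psmb4, Psmb6 and Psmb7 of the beta ring, Psmc3, Psmc4, Psmd1 and Psmd3 of the 19S particle, and Psmc3ip. All 9 were also called lower in WT cells, where they were 29% of those called. Such overlap was not counted over all tested genes. None of the 7 tested alpha genes was called by edgeR, although 1 had an unadjusted p under 0.05 and in all 7 the hypoxic libraries lay below the normoxic ones. Over all members the libraries did not overlap, with hypoxia lower, for 36 of 46 and with hypoxia higher for 1, against 29.3% and 25.9% of all tested genes. These calls were sensitive to the libraries. With only the 4 FIH-KO libraries in the fit, 0 of 14 core genes and 0 of 17 genes of the 19S particle were called, and Psmc3ip was. Without replicate 1 or 2 of FIH-KO normoxia 2 and 1 members were called lower, without replicate 1 of FIH-KO hypoxia 4, and 1 when only the 4 FIH-KO libraries entered the fit.

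**Figure D3:**
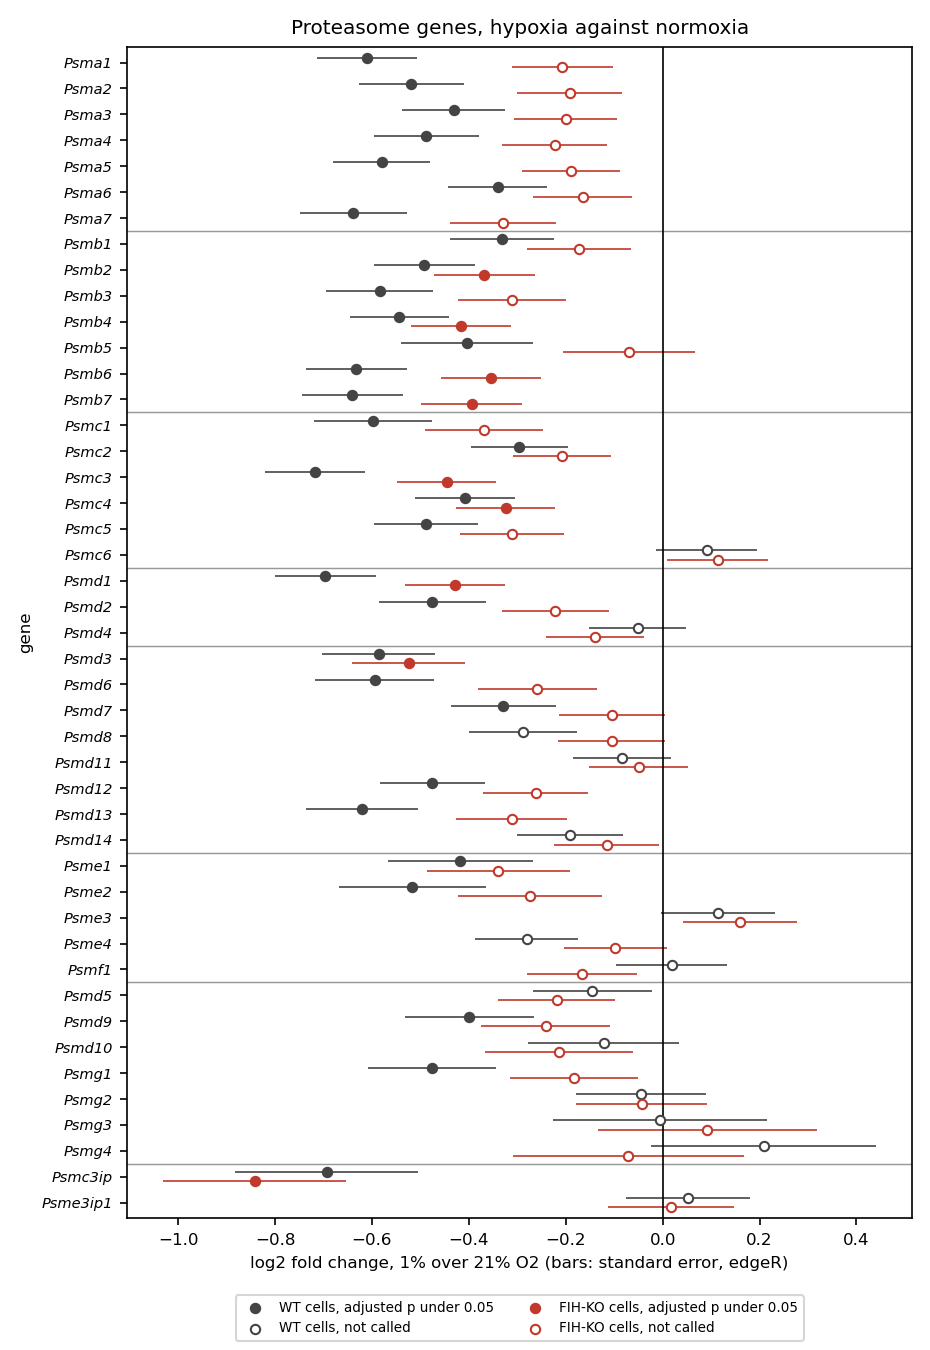
Log2 fold change of hypoxia over normoxia (horizontal axis) with its standard error for each tested member, in WT (grey) and FIH-KO cells (red). Filled points have an adjusted p under 0.05. Psme2b, whose standard errors are 0.97 and 0.71, is left out. All 14 core genes are filled in WT cells and 4 in FIH-KO cells.

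The difference between the genotypes in the response to hypoxia was tested directly, as an interaction. It was called for 0 of the 46 members and for 0 of the 13933 genes by edgeR. At an unadjusted p under 0.05 there were 2 members, Psma1 and Psma5, and 925 of all genes, and DESeq2 also called 0 members. The interaction is positive where FIH-KO cells lost less in hypoxia than WT cells, and it was positive for all 14 core genes and for 39 of the 46 members. Its size was between 0.12 and 0.40 in the core, with a median of 0.27, against -0.02 over all genes. For Psma1 it was 0.40 (SE 0.15, adjusted p = 0.62) and for Psma5 0.39 (SE 0.14, adjusted p = 0.62). A difference in response between WT and FIH-KO cells is therefore not shown for any member, and with SE of this size it was not excluded either.

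The comparison of FIH-KO with WT cells in normoxia uses the same normoxic WT libraries as the hypoxia comparison above, so the values are given side by side and their likeness is not counted. In normoxia 16 of 46 members (34.8%) were called lower in FIH-KO cells and 1 higher, against 13% and 15.2% of all tested genes. The median log2 fold change was -0.22 over the members and -0.003 over all tested genes. The libraries did not overlap, with FIH-KO lower, for 27 members, against 34.8% of all tested genes, and with FIH-KO higher for 8, against 34.6%. Those called lower were Psma1, Psma2, Psma4 and Psma5 of the alpha ring, Psmb4 of the beta ring, Psmc5, Psmc6, Psmd1 and Psmd4 of the base, Psmd3, Psmd7, Psmd11 and Psmd12 of the lid, the nuclear activators Psme3 and Psme4, and Psme3ip1. The assembly factors had no call in edgeR. The 2 with an unadjusted p under 0.05, the base chaperones Psmd5 and Psmd10, were at 0.32 (adjusted p = 0.067) and 0.39 (adjusted p = 0.079) on the log2 scale. Without replicate 1 of WT normoxia 4 members were called lower, without its replicate 2 there were 8, and without replicate 1 of FIH-KO normoxia 7. Psmf1, the only member called higher (log2 fold change 0.39, adjusted p = 0.022), was not called when any of the 4 libraries was left out.

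In hypoxia the members lay near all other genes in the comparison of FIH-KO with WT cells. Of the 46, 8 (17.4%) were called lower in FIH-KO than in WT cells and 3 higher, against 13.9% and 14.1% of all tested genes, and the median log2 fold change was 0.02, against -0.03 over all tested genes. The libraries did not overlap, with FIH-KO lower, for 17 members, against 32.5% of all tested genes, and with FIH-KO higher for 16, against 29.1%. Here the groups shared no library with those compared in normoxia, although both comparisons set the same genotypes against each other in 1 fit. All 8 called lower in hypoxia (Psma5, Psmb4, Psmc6, Psmd4, Psmd7, Psmd11, Psme3 and Psme3ip1) were also called lower in normoxia, where they were 50% of the 16. None of the members was called in opposite directions. Such overlap was not counted over all tested genes. Without replicate 1 or 2 of WT hypoxia 3 and 4 members were called lower, and 5 without either replicate of FIH-KO hypoxia. The count of those called higher was 1 without either replicate of WT hypoxia and 5 without replicate 2 of FIH-KO hypoxia.

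**Figure D4:**
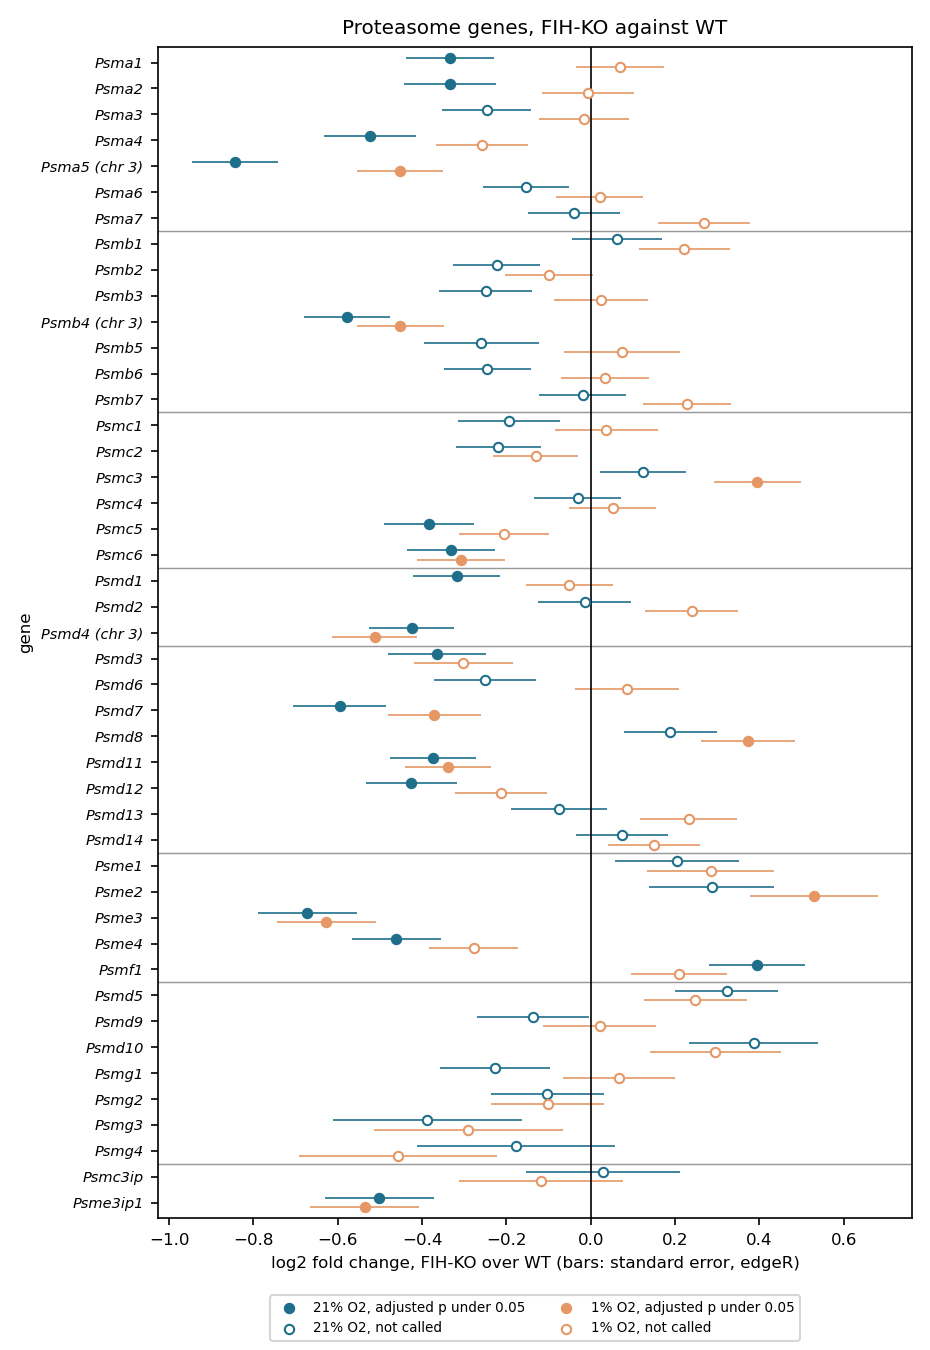
Log2 fold change of FIH-KO over WT cells (horizontal axis) with its standard error for each tested member, at 21% O2 (blue) and 1% O2 (orange). Filled points have an adjusted p under 0.05, and genes on chromosome 3 are marked. Psme2b, whose standard errors are 0.73 and 0.93, is left out. Most points of the core lie left of 0 at 21% O2 and near 0 at 1% O2, while those of Psma5, Psmb4, Psmd4, Psmd7 and Psme3 stay left of 0 at both.

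Psma5, a subunit of the alpha ring, had the largest called difference between the genotypes in normoxia. It was at 204.5 and 195.3 CPM in WT normoxia, 109.3 and 113.5 CPM in FIH-KO normoxia, 128.9 and 138.6 CPM in WT hypoxia, and 98.4 and 97.0 CPM in FIH-KO hypoxia. FIH-KO libraries were below WT libraries at both oxygen levels, by 44.3% in normoxia (log2 fold change -0.84, SE 0.10, adjusted p = 0.00013) and 26.9% at 1% O2 (-0.45, SE 0.10, adjusted p = 0.0064). Psmb4, a beta subunit without a catalytic site, was at 166.3 and 169.7 CPM in WT normoxia, 110.6 and 114.3 CPM in FIH-KO normoxia, 120.7 and 109.8 CPM in WT hypoxia, and 83.2 and 85.4 CPM in FIH-KO hypoxia. It was 33.1% lower in FIH-KO normoxia (adjusted p = 0.0015) and 26.9% lower in FIH-KO hypoxia (adjusted p = 0.0068). Psmd4 was at 174.7 and 178.1 CPM in WT normoxia, 132.4 and 130.5 CPM in FIH-KO normoxia, 171.4 and 169.0 CPM in WT hypoxia, and 124.4 and 114.3 CPM in FIH-KO hypoxia. Its FIH-KO libraries lay below its WT libraries at both oxygen levels, with log2 fold changes of FIH-KO over WT of -0.42 at 21% O2 (adjusted p = 0.0082) and -0.51 at 1% O2 (adjusted p = 0.0029). Within each genotype its hypoxic libraries lay below the normoxic ones, and hypoxia had no call for it (-0.05 in WT and -0.14 in FIH-KO cells, adjusted p = 0.73 and 0.38).

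These 3 genes are the members on chromosome 3. Chromosomes 3 and 19 were the ones whose tested genes had a median log2 fold change of FIH-KO over WT beyond 0.25 in size in both oxygen conditions. Over the 683 tested genes of chromosome 3 the median log2 fold change was -0.36 in normoxia and -0.41 in hypoxia. The 10 nearest tested genes had medians of -0.43 and -0.69 around Psma5, -0.33 and -0.53 around Psmb4, and -0.30 and -0.29 around Psmd4. The part of the chromosome in the results of the 3 genes was not tested, and no member lies on chromosome 19. Within the cut, chromosome 2 had the largest medians, 0.23 in normoxia and 0.21 in hypoxia. Of its 1113 tested genes 28.7% and 28.8% were called higher. It holds 6 members, of which Psmf1 was called higher in FIH-KO normoxia and Psmc3 in FIH-KO hypoxia. The part of chromosome 2 in their results was not tested. Over the 43 tested members on the other chromosomes, 13 were called lower and 1 higher in normoxia, with a median of -0.22, and 5 lower and 3 higher in hypoxia, with a median of 0.02.

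Off chromosome 3, 5 members were lower in FIH-KO cells at both oxygen levels, and all except Psmd7 had no call for hypoxia in WT cells. Psmc6, Psmd7 and Psmd11 lost their call at 1% O2 under some settings that kept all libraries of the comparison. Psmc6 also lost its call at 21% O2 in this way. Psme3 was at 238.9 and 227.9 CPM in WT normoxia, 132.6 and 160.2 CPM in FIH-KO normoxia, 253.2 and 252.0 CPM in WT hypoxia, and 172.6 and 154.5 CPM in FIH-KO hypoxia. It was 37.3% lower in FIH-KO normoxia (log2 fold change -0.67, SE 0.12, adjusted p = 0.0015) and 35.3% lower in FIH-KO hypoxia (-0.63, SE 0.12, adjusted p = 0.0022). Psme3ip1 encodes a nuclear protein that binds PA28γ, the product of Psme3. It was at 43.4 and 43.6 CPM in WT normoxia, 30.5 and 31.0 CPM in FIH-KO normoxia, 48.9 and 41.2 CPM in WT hypoxia, and 31.7 and 30.5 CPM in FIH-KO hypoxia, which is 29.4% (adjusted p = 0.013) and 31.0% lower (adjusted p = 0.0092). Neither gene had a call for hypoxia in either genotype. The same held for Psmd11, a lid subunit (-0.37 and -0.34 in FIH-KO cells, adjusted p = 0.017 and 0.027), and for the ATPase Psmc6 (-0.33 and -0.31, adjusted p = 0.033 and 0.045). Psmd7, the lid partner of Psmd14, was the exception. It was at 242.0 and 241.9 CPM in WT normoxia, 146.8 and 173.4 CPM in FIH-KO normoxia, 190.5 and 194.8 CPM in WT hypoxia, and 150.9 and 147.0 CPM in FIH-KO hypoxia. It was lower in FIH-KO cells at 21% O2 (-0.60, adjusted p = 0.002) and at 1% O2 (-0.37, adjusted p = 0.025), and lower in hypoxia in WT cells (-0.33, adjusted p = 0.037).

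**Figure D5:**
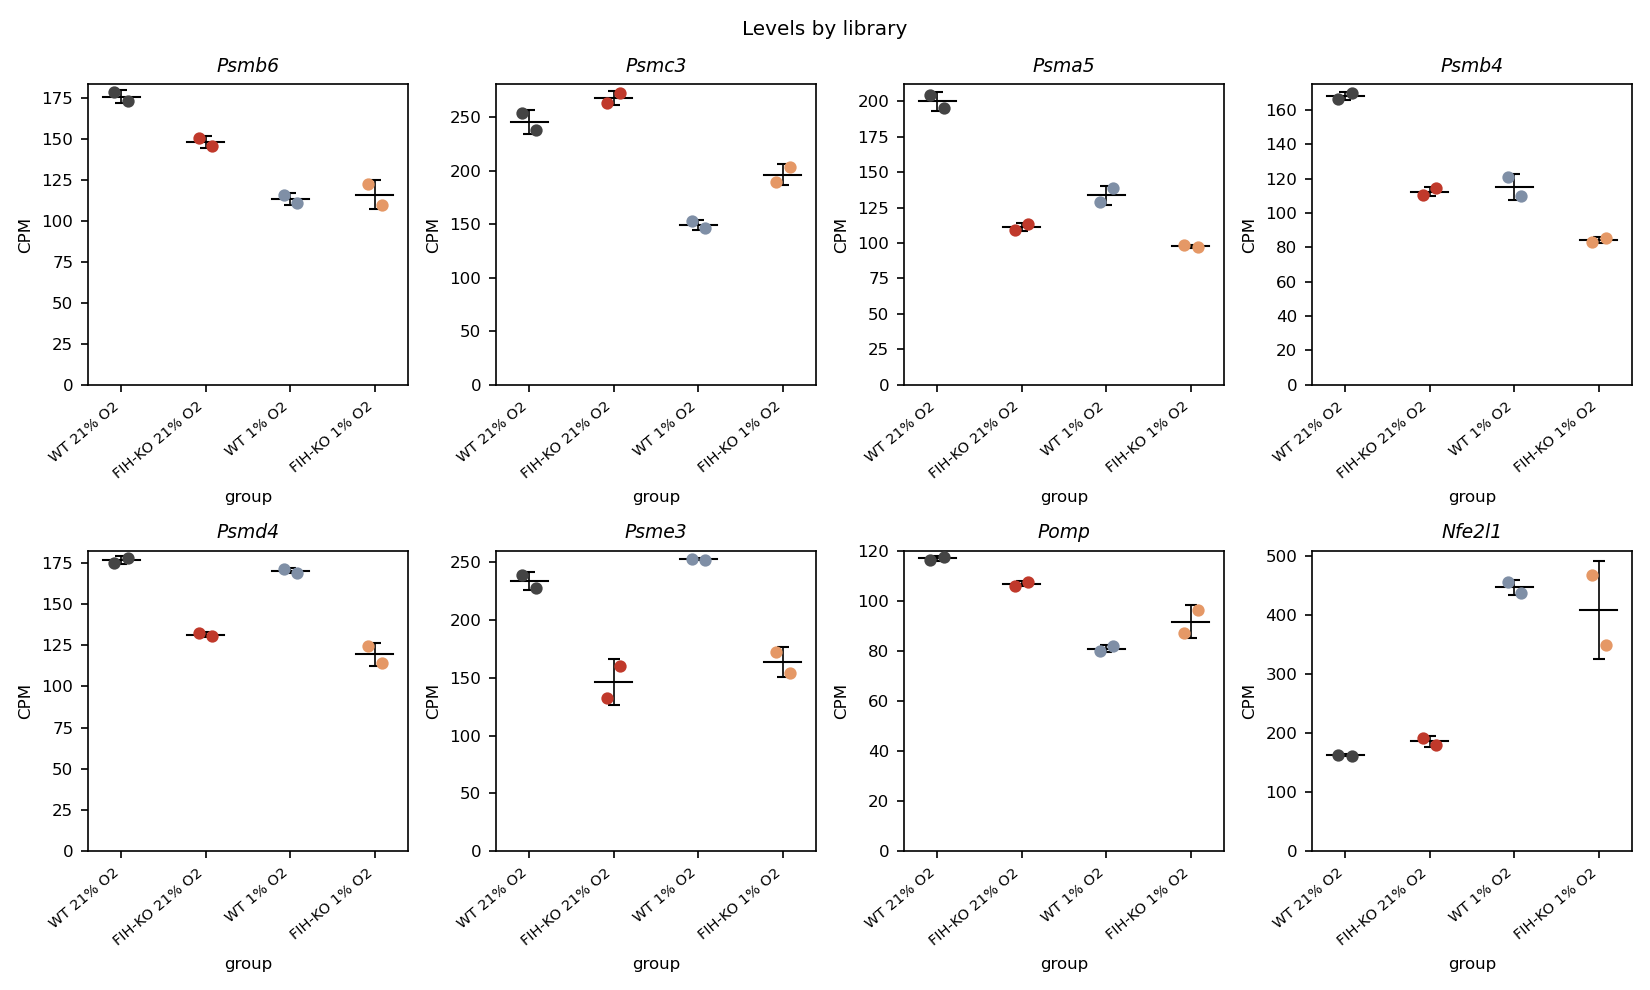
CPM by library (vertical axes, from 0) of 6 members and of Pomp and Nfe2l1 in the 4 groups. Points are libraries, horizontal lines are means and error bars are SD (n = 2). Psmb6 and Psmc3 fall with hypoxia, Psmd4 and Psme3 are lower in both FIH-KO groups than in both WT groups, Psma5 and Psmb4 are lowest in FIH-KO hypoxia, and Nfe2l1 rises from at most 192.1 CPM in normoxia to at least 349.7 CPM in hypoxia.

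A smaller set was higher in FIH-KO cells in hypoxia, with calls that did not hold for every choice of library left out. Psmc3, with the values given above, was 0.39 higher on the log2 scale (SE 0.10, adjusted p = 0.014), and in normoxia it was at 0.12 (adjusted p = 0.4). Psmd8, a lid subunit, was at 132.5 and 131.5 CPM in WT normoxia, 144.6 and 156.3 CPM in FIH-KO normoxia, 105.2 and 111.0 CPM in WT hypoxia, and 150.8 and 128.9 CPM in FIH-KO hypoxia. FIH-KO libraries were above WT libraries at both oxygen levels, and the difference passed the test in hypoxia (0.37, adjusted p = 0.026) and not in normoxia (0.19, adjusted p = 0.23). Psme2 was at 36.1 and 41.3 CPM in WT normoxia, 52.4 and 42.1 CPM in FIH-KO normoxia, 24.6 and 29.6 CPM in WT hypoxia, and 39.4 and 38.7 CPM in FIH-KO hypoxia. It was 0.53 higher in FIH-KO hypoxia (SE 0.15, adjusted p = 0.022). Its transcript is 99.4% identical over 795 aligned bases to that of Psme2b, which had at most 0.774 CPM and no call, so that reads of both are uncertain. Of the immunoproteasome subunits, which lie outside the rule, Psmb8 and Psmb9 were called higher in FIH-KO normoxia and Psmb10 was not called (adjusted p = 0.22). Psmb8 had 2 reads in each normoxic WT library against 61 and 53 in the FIH-KO libraries (adjusted p = 0.00026). Psmb9 had 0 and 4 reads in the normoxic WT libraries against 15 and 16 in the FIH-KO libraries (adjusted p = 0.016). In FIH-KO hypoxia Psmb8 was called higher (adjusted p = 0.0011), while Psmb9 and Psmb10 were not called (adjusted p = 0.21 and 0.46).

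Of the remaining members, Psmc5 was at 249.9 and 214.5 CPM in WT normoxia, 179.9 and 176.2 CPM in FIH-KO normoxia, 165.7 and 165.2 CPM in WT hypoxia, and 143.5 and 143.5 CPM in FIH-KO hypoxia. It was the ATPase most reduced in FIH-KO normoxia, 23.3% lower (adjusted p = 0.019), and its normoxic WT libraries were farther apart than those of most members. Psma4 was 30.4% lower in FIH-KO normoxia (adjusted p = 0.0039), Psme4 27.4% (adjusted p = 0.0068), Psmd12 25.6% (adjusted p = 0.012) and Psmd3 22.3% (adjusted p = 0.034). Psma1 and Psma2 were both 20.7% lower (adjusted p = 0.03 and 0.037) and Psmd1 19.8% lower (adjusted p = 0.037). In hypoxia their log2 fold changes of FIH-KO over WT were -0.30 (Psmd3), -0.28 (Psme4), -0.26 (Psma4), -0.21 (Psmd12 and Psmc5), -0.05 (Psmd1), -0.01 (Psma2) and 0.07 (Psma1), with no call. In 7 of the 46 members, Psmd14, Psme2b, Psmd5, Psmd10, Psmg2, Psmg3 and Psmg4, edgeR made no call in any comparison. Of these, 5 are assembly factors.

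The genes that work with the proteasome were taken from lists of 39 genes, of which 35 were tested. In WT hypoxia 7 of the 35 were called higher and 6 lower, against 16.9% and 15.5% of all tested genes, with a median log2 fold change of 0.13. In FIH-KO cells 6 were higher and 3 lower in hypoxia, against 8.84% and 8% of all tested genes, with a median of 0.01. By list, the calls in WT hypoxia were 4 higher and 0 lower of 6 tested genes for NRF1 and its processing, 1 and 1 of 11 for other subunits, chaperones and bound enzymes, 1 and 2 of 6 for shuttle receptors, 0 and 2 of 6 for Vcp and its cofactors, and 1 and 1 of 6 for ubiquitin genes and E1 enzymes. In FIH-KO cells the counts in hypoxia were 3 and 0, 1 and 0, 1 and 2, 0 and 1, and 1 and 0 in the same order. For FIH-KO against WT they were 1 and 0, 0 and 2, 1 and 1, 0 and 0, and 0 and 1 in normoxia, and 1 and 0, 0 and 3, 1 and 1, 1 and 1, and 0 and 1 in hypoxia. Over all tested genes, 15.2% were higher and 13% lower in FIH-KO normoxia, and 14.1% and 13.9% in FIH-KO hypoxia. Nfe2l1, which encodes NRF1, was at 163.5 and 161.9 CPM in WT normoxia, 192.1 and 179.3 CPM in FIH-KO normoxia, 455.6 and 436.9 CPM in WT hypoxia, and 467.1 and 349.7 CPM in FIH-KO hypoxia. It rose by 1.46 on the log2 scale in WT cells (SE 0.14, adjusted p = 2.3e-05) and by 1.14 in FIH-KO cells (SE 0.13, adjusted p = 0.00023), and FIH-KO differed from WT at neither oxygen level by the test (0.19 and -0.13, adjusted p = 0.32 and 0.51). The small MAF genes Maff, Mafg and Mafk also rose in WT hypoxia, by 1.00, 0.72 and 0.79 (adjusted p = 0.0031, 0.00088 and 0.006). Ddi2, the protease that releases NRF1 from its membrane-bound form, rose by 0.53 in WT (adjusted p = 0.0038) and 0.38 in FIH-KO cells (adjusted p = 0.036). Nfe2l2, which encodes NRF2, was instead higher in FIH-KO cells, by 0.74 in normoxia and 0.87 in hypoxia (adjusted p = 0.00042 and 0.00015), with fold changes for hypoxia of 0.00 and 0.13 that were not called.

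Of the 6 members with an ARE match in the window, 4 (Psmb5, Psmb6, Psmd9 and Psmd12, with the sequences shown above) were called lower in WT hypoxia. Of the 33 tested members with a promoter and no match, 21 were, which is 66.7% against 63.6%. Median log2 fold changes were -0.40 and -0.48. For the core of the hypoxia response element the shares called lower were 72.7% of 22 with and 52.9% of 17 without it, with medians of -0.45 and -0.42. In FIH-KO cells in hypoxia they were 13.6% with and 11.8% without it, with medians of -0.21 and -0.26. In WT hypoxia the shares were 64.3% of 14 with and 64% of 25 without the CCAAT box. For the E-box they were 50% of 4 and 65.7% of 35.

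Among subunits outside the rule, Adrm1, a ubiquitin receptor of the base, and Sem1, a small lid protein, had no call in any comparison. Pomp, the chaperone that completes the core, was at 116.3 and 117.8 CPM in WT normoxia, 106.2 and 107.6 CPM in FIH-KO normoxia, 80.0 and 82.1 CPM in WT hypoxia, and 87.1 and 96.5 CPM in FIH-KO hypoxia. Like the core genes it fell in WT hypoxia (-0.53, SE 0.10, adjusted p = 0.0024), and in FIH-KO cells the value was -0.22 (adjusted p = 0.17). Uchl5, a deubiquitinase held by Adrm1, was lower in FIH-KO cells by 1.02 in normoxia and 1.09 in hypoxia (adjusted p = 7.5e-05 and 5.6e-05). The ligase Ube3c was lower by 0.46 and 0.45 (adjusted p = 0.0065 and 0.0074). Zfand2a, an arsenite-inducible proteasome-binding protein, rose in hypoxia by 1.72 in WT and 1.27 in FIH-KO cells (adjusted p = 3e-05 and 0.00046). Vcp, the p97 segregase that delivers substrates, fell in hypoxia by 0.58 and 0.42 (adjusted p = 0.0018 and 0.019). The shuttle receptors differed among themselves: Ubqln2 was higher in FIH-KO cells (0.48 and 0.65, adjusted p = 0.012 and 0.0024) and Ubqln4 lower (-0.66 and -0.89, adjusted p = 0.0051 and 0.00098). The E1 enzyme Uba1 fell in WT hypoxia (-0.42, adjusted p = 0.015) and the second E1 enzyme Uba6 rose (0.51, adjusted p = 0.0033).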

How the data were processed

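RNA-Seq counts of 8 libraries were analysed. The authors prepared stranded mRNA libraries, mapped the reads with STAR and used HTSeq to count reads for each gene. The paper gives the genome build as GRCm39, while the sources also name GRCm38 (mm10). What they deposited are raw counts with no normalization. The strand setting of the counting and the handling of reads with several matches are not given in the sources used here, and 21 of the 48 members overlap another protein-coding gene, in 18 cases on the opposite strand, so that their reads cannot be fully separated. Groups were taken from the labels. The test was the quasi-likelihood test of edgeR 4.0.16 in R 4.3.3 (genes kept by filterByExpr, TMM, 1 fit of all 8 libraries without replicate block, Benjamini-Hochberg over 13933 genes, threshold 0.05). The biological coefficient of variation, common to all genes, was 11.7%. The fit was tried on simulated counts, for FIH-KO against WT in normoxia only. All genes had this same spread there, so it does not show how calls behave where the spread differs. Library totals ran from 14519731 to 18177016 counts, and the libraries of each group differed by more than counting error (chi-square per degree of freedom 6.15 to 25.7). A fold change of hypoxia is 1% over 21% O2 and one of genotype is FIH-KO over WT.

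The alternatives were DESeq2 1.42.0, RLE and upper-quartile factors, other count filters, only the 4 libraries of a comparison, the replicate number as a block, and each library left out. Promoter and transcript sequences came from RefSeq and GENCODE tables. Members and gene lists were chosen with earlier results of these data known. Library values were given for the catalytic subunits, for the called member with the largest change in each role and comparison and for members on chromosomes shifted by over 0.25 in both oxygen conditions. Of the related genes, Nfe2l1, Pomp, Adrm1 and the called genes with the smallest adjusted p of each list were named by rule, and the others after their values were seen. Levels of different genes were not compared, because transcript lengths in use in these cells are unknown.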

Additional observations from a re-analysis of the deposited data

How the results depend on the processing

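Same-numbered libraries were at most weakly paired (correlations of their deviations from -0.01 to 0.19, the highest between WT and FIH-KO hypoxia). The fit with the replicate block gave 16 members lower and 1 higher in FIH-KO normoxia, 7 lower and 3 higher in FIH-KO hypoxia, 31 lower in WT hypoxia, 8 lower in FIH-KO cells in hypoxia, and 0 for the interaction. With only the 4 libraries of a comparison, 3 members were called higher in FIH-KO normoxia and 5 lower in FIH-KO against WT hypoxia. For hypoxia in FIH-KO cells 1 was called lower, Psmc3ip, which is no subunit. Without a filter beyond 1 read, 5 were lower in FIH-KO against WT hypoxia.

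With 1 library left out, where the lone library of its group is assumed to vary like the other groups, FIH-KO normoxia had 0 members higher, 4 to 12 lower and a median of -0.30 to -0.21. FIH-KO against WT hypoxia had 1 to 5 higher and 3 to 5 lower, WT hypoxia 18 to 22 lower, and FIH-KO cells in hypoxia 1 to 8 lower, and the interaction had a median of 0.18 to 0.26. Values that were not called changed sign: in FIH-KO normoxia Psmb7 (-0.108 to 0.0192) and Psmc3ip (-0.125 to 0.126), in FIH-KO against WT hypoxia Psmb5 (-0.0897 to 0.258), Psmb6 (-0.0052 to 0.113), Psmd1 (-0.0913 to 0.0343) and Psmc3ip (-0.281 to 0.0744), in WT hypoxia Psme3ip1 (-0.114 to 0.164), and in FIH-KO cells in hypoxia Psmb5 (-0.249 to 0.105) and Psmd7 (-0.201 to 0.0438). Of the 31 members lower in WT hypoxia 29 were called under every setting that kept all libraries of the comparison, and 17 also with each library left out. For FIH-KO normoxia these counts were 12 and 4 (Psma5, Psmb4, Psmd7 and Psme3) of 16, for FIH-KO against WT hypoxia 5 and 2 (Psmd4 and Psme3) of 8, and for hypoxia in FIH-KO cells 1 and 0 of 9. The 1 member kept for hypoxia in FIH-KO cells was Psmc3ip, which is no subunit. The calls of members higher in FIH-KO cells held under every setting that kept all libraries of the comparison. They did not hold for every choice of library left out. With 2 libraries a group, calls of changes near 0.3 on the log2 scale depend on single libraries.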
